A study of Mus musculus with 84 samples.

Results

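Cells low in G2M genes were set against cycling cells among 84 single endothelial-sorted cells of the mouse embryo. The cells were chosen by measured values: for each one the number of 16 genes of the G2 and M phases at TPM 10 or more was counted, where TPM gives a gene's share of a cell's transcripts, corrected for transcript length and scaled to a fixed total. The 16 genes were Mki67, Top2a, Cdk1, Ccnb1, Ccnb2, Ccna2, Aurka, Aurkb, Bub1, Plk1, Cenpf, Cenpe, Cdc20, Birc5, Tpx2 and Ube2c. Cells with 7 or fewer numbered 17 of 84 (20.2%, exact 95% interval 12.3 to 30.4%) and are called low cells below. Cells with 13 or more numbered 42 of 84 (50%, interval 38.9 to 61.1%) and are called cycling cells. The other 25 cells (29.8%, interval 20.3 to 40.7%) lay between the limits and are shown beside both. The comparison thus covers 59 of the 84 cells, and the intervals cover counting error over cells only.

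All cells came from the aorta-gonad-mesonephros region, the part of the trunk that holds the dorsal aorta, at stage E11.5, where E counts days of gestation. Both classes passed the same sort, for CD31 (Pecam1) and CD144 (Cdh5), found on endothelium, and against CD41 (Itga2b) and CD45 (Ptprc), found on platelet-lineage and blood cells. They were captured on a microfluidic chip made for cells of 10 to 17 µm, so smaller and larger cells were not sampled, and full-length cDNA of each cell was sequenced. No strain, genotype or treatment is given in the labels, and the labels do not tie cells to embryos. The 84 cells therefore count as 1 sample: every value below describes these cells, the SD is over cells, and no test between the classes was run.

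A dividing cell copies its DNA in S phase, prepares for division in G2 and separates its chromosomes in M phase. Many G2 and M genes are held off in G1 and switched on together before mitosis by a complex that binds short promoter elements, and their proteins are destroyed as mitosis ends. A cell with few of these transcripts may be in G1, in S phase or out of the cycle, so a low count does not by itself mark a resting cell. Growth of embryonic vessels rests on division of endothelial cells, and in other systems arrest of endothelial cells has been linked to arterial identity.

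The rule genes themselves are given as a description, since they chose the classes. Ccnb1, cyclin B1, the partner of Cdk1 at entry into mitosis (chromosome 13, 100778739 to 100786486), ran from 0.0 through a median of 0.33 to 165.9 TPM in low cells, against 0.0, 362.3 and 2357 TPM in cycling cells. The kinase gene Aurkb reached TPM 1 in 0 of 17 low cells (interval 0 to 19.5%) and in 37 of 42 cycling cells. Cdc20, an activator of the anaphase-promoting complex, reached at most 5.38 TPM in low cells, where 3 of 17 held it at TPM 1, against a median of 54.8 TPM in cycling cells. Not all 16 were near 0. Birc5 (survivin) was at TPM 1 or more in all 17 low cells with a median of 11.47 TPM, against 429.5 TPM in cycling cells. The DNA topoisomerase gene Top2a was at TPM 1 in 16 of 17 low cells, with a median of 12.1 TPM, against 323.2 TPM in cycling cells, and the proliferation marker Mki67 in 7 of 17, with medians of 0.73 TPM in low cells and 77.9 TPM in cycling cells. These values follow from how the cells were chosen and are no check of the label.

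The count had no clean gap at the limits. There were 4 cells at 7 genes, 6 at 8, 7 at 12 and 6 at 13, and 1 cell held 0 and 14 cells held all 16. Of the 4 cells just inside the lower limit, Top2a stood at 244.5 TPM in cell 45, 248.8 TPM in cell 47, 41.9 TPM in cell 72 and 0.70 TPM in cell 77. In the 6 cells just outside it, Top2a ran between 23.5 and 318.1 TPM, so these cells overlap in that gene. The low class thus runs from a cell with 0 of the rule genes at TPM 10 to cells with 7 of them.

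The upstream sequences of 2 rule genes and of Nde1, a gene outside the rule with a known mitotic role that is described below, are given as examples. Matches to short elements through which G2 and M genes are known to be timed are marked in them. Each is the 250 bases before the RefSeq start on GRCm38.p6, written 5′ to 3′ on the gene's strand. Capitals mark TTTGAA, the core of the cell cycle homology region, and CCAAT, the box bound by NF-Y, on either strand (TTCAAA and ATTGG on the other one). Cdc20 lies at chr4:118437344-118437593 on the minus strand, Ccnb1 at chr13:100786487-100786736 on the minus strand and Nde1 at chr16:14163025-14163274 on the plus strand.
Cdc20: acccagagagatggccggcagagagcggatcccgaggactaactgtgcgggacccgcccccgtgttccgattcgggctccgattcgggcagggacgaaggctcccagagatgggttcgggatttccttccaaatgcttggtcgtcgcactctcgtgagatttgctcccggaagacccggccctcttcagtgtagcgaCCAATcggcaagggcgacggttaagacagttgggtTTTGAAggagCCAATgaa
Ccnb1: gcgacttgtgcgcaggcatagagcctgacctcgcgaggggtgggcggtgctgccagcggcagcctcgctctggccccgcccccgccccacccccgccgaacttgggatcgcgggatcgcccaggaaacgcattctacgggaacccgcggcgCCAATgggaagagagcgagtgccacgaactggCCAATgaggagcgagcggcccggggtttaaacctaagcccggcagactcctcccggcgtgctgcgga
Nde1: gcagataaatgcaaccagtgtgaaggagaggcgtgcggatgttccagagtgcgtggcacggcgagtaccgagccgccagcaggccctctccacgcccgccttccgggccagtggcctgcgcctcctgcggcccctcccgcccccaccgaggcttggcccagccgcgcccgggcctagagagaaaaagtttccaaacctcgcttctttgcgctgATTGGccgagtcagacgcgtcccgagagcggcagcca
Cdc20 holds 2 CCAAT boxes and 1 TTTGAA near the start, and Ccnb1 holds 2 CCAAT boxes and no TTTGAA. Nde1 holds 1 CCAAT box on the other strand and no TTTGAA, and a CCAAT box is common among all promoters (shares below).

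Promoters were given for 13 of the 16 rule genes. CCAAT was present on either strand in 12 of those 13 (92.3%, interval 63.97 to 99.8%), Birc5 being the one without it, against 33.9% of all 32851 promoters given. TTTGAA was present in 6 of 13 (46.2%), against 15.99% of all promoters. The E2F-type element TTGGCGC was in 3 of 13 (23.1%), against 1.97% of all, and GCGGGAA in 0 of 13, against 3.82% of all. Of the 1560 promoters of genes outside the cell cycle with a mean at least 1 log2 unit lower in low cells, 13.6% held TTTGAA and 35.3% held CCAAT, beside 10.5% and 34.9% of the 10452 promoters of all genes outside the cell cycle that were compared. A match is only a run of letters in this window and shows no binding.

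**Figure D1:**
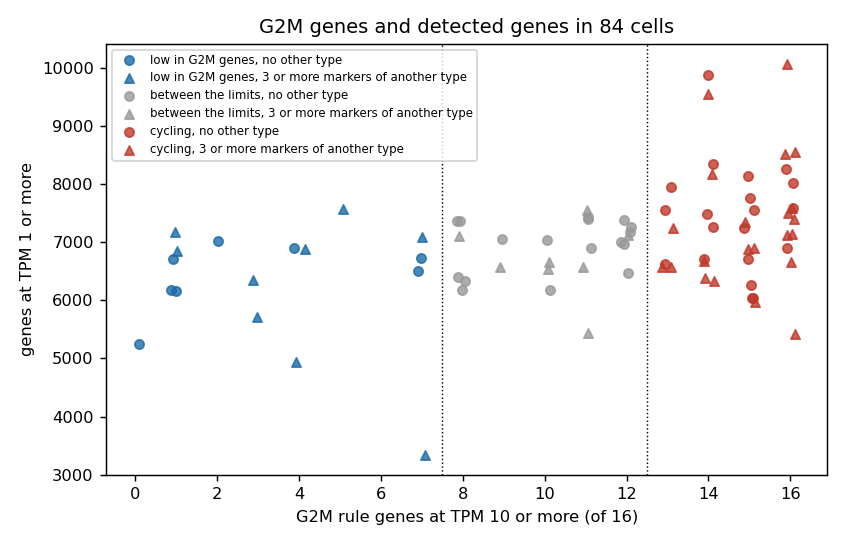
Each of the 84 cells by the number of the 16 rule genes at TPM 10 or more (x axis) and the number of genes at TPM 1 or more (y axis), coloured by class, with triangles for cells that hold 3 or more markers of another cell type. Detected genes had medians of 6703 in low cells and 7251.5 in cycling cells, and triangles stand in all 3 classes.

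The classes differed in more than the rule. In low cells a median of 6703 genes lay at TPM 1 or more (3334 to 7575), in cells between the limits 6995 (5437 to 7545) and in cycling cells 7251.5 (5427 to 10073). A shift towards lower values in low cells across all genes goes with that count, and the part that the number of detected genes plays was not tested. TPM keeps no read depth, so depth could not be compared. The 7 sets of 12 cells that share the second index of the barcode held between 0 and 5 low cells and between 5 and 9 cycling cells, and 6 sets held both classes.

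Markers of other cell types were present in both classes. Cells with 3 or more markers of another type at TPM 10 numbered 9 of 17 low cells (52.9%, interval 27.8 to 77.02%) and 22 of 42 cycling cells (52.4%, interval 36.4 to 68%), with 8 of 25 between. Mesenchyme markers, such as collagen genes, accounted for 7 of the low cells and 20 of the cycling cells, and their summed level ran from 0.04 through a median of 13.7 to 1400 TPM in low cells, against 0.11, 71.1 and 2970 TPM in cycling cells. Smooth muscle, erythroid and macrophage lists reached 3 markers in 0 low cells, against 1, 3 and 0 cycling cells, and Ptprc was at 0 in all 84 cells. Epithelial markers reached 3 in 0 low cells and 1 cycling cell, with summed levels of at most 29.9 and 477.4 TPM in those classes. Platelet markers reached 3 in 1 low cell and 2 cycling cells, and neural markers in 1 low cell and 3 cycling cells. Platelet markers summed to at most 49530 TPM in low cells, against 429.5 TPM in cycling cells. Neural markers summed to at most 5427 and 3338 TPM, with medians of 0.57 and 4.18 TPM.

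A few low cells, 4 in number, stand apart from the rest. Cell 41 held platelet genes at 49530 TPM in sum, among them Pf4 at 35700 TPM, Ppbp at 10390 TPM and Gp9 at 2425 TPM. Itga2b, which encodes the CD41 that the sort selected against, was at 686.4 TPM there. Cell 12 held the neuronal genes Tubb3 at 3333 TPM and Stmn2 at 1403 TPM. Cell 72 had the fewest detected genes of all 84 (3334), and cell 78 held 4 of 24 pan-endothelial genes at TPM 10, where the median low cell held 17 and the median cycling cell 19.5. Single cycling cells were as far from the rest. Cell 65 held 0 of the 24 pan-endothelial genes at TPM 10, and cells 13, 23 and 39 held 2 each. Cells 23 and 39 also held 4 neural markers each, and cells 62 and 81 held 3 erythroid and 3 platelet markers each. No cycling cell was left out in the setting without cells 12, 41, 72 and 78. Values without cells 12, 41, 72 and 78, and without all cells that carry other markers (which leaves 8 low and 20 cycling cells), are given beside named results that they move most.

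Genes of mitosis that the rule did not use followed it closely. Of 104 other mitosis genes compared, 86 had a mean at least 1 log2 unit lower in low cells and 0 a mean that much higher. Of all 11135 genes compared, 16.3% were that much lower and 2.07% that much higher. The median difference of the 104 was -2.47, and all but 1 had a negative difference. A difference here is the mean of log2(TPM + 1) in low cells minus that in cycling cells. Across all 505 cell cycle genes compared, 47.7% had a mean at least 1 log2 unit lower in low cells and 1.58% one at least 1 unit higher; since these genes vary with the rule genes by their nature, nothing is read from that share. Cdca8, borealin of the chromosomal passenger complex, ran from 0.0 through 1.0 to 132.7 TPM in low cells, against 0.0, 206.6 and 838.5 TPM in cycling cells. Counted per cell, low cells held 27 to 58 of the 104 at TPM 10 (median 37), cells between the limits 37 to 74 (median 62) and cycling cells 57 to 94 (median 78). The 2 classes barely overlap in that count: 2 low cells reached the lowest cycling cell and 1 cycling cell lay at or under the highest low cell. Since the other mitosis genes also vary with the rule genes by their nature, these values are no check of the classes.

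In S phase genes the ranges of the classes overlapped for most cells. Low cells held 24 to 65 of 91 at TPM 10 (median 53), cells between 31 to 78 (median 58) and cycling cells 30 to 81 (median 64), and 8 of 17 low cells lay at or above 54.5, the lower quartile of the cycling cells. Of 90 S phase genes compared, 36 (40%) had a mean at least 1 log2 unit lower in low cells and 3 one at least 1 unit higher, with a median difference of -0.72. Of all genes compared outside the cell cycle, 14.8% were lower and 2.1% higher by 1 unit. In cells of like numbers of detected genes (9 low and 13 cycling cells with 6268.6 to 7125.4 genes) the median of the S phase genes was 0.08, with 13 lower and 16 higher. There 11.2% of genes outside the cycle were lower and 14.5% higher, with a median of 0.05. Without cells carrying other markers the S phase median was -0.96, with 43 lower and 2 higher, beside 19.8% lower and 6.41% higher outside the cycle. The median of the S phase list was thus near 0 at like gene counts, but further below 0 without cells carrying other markers.

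**Figure D2:**
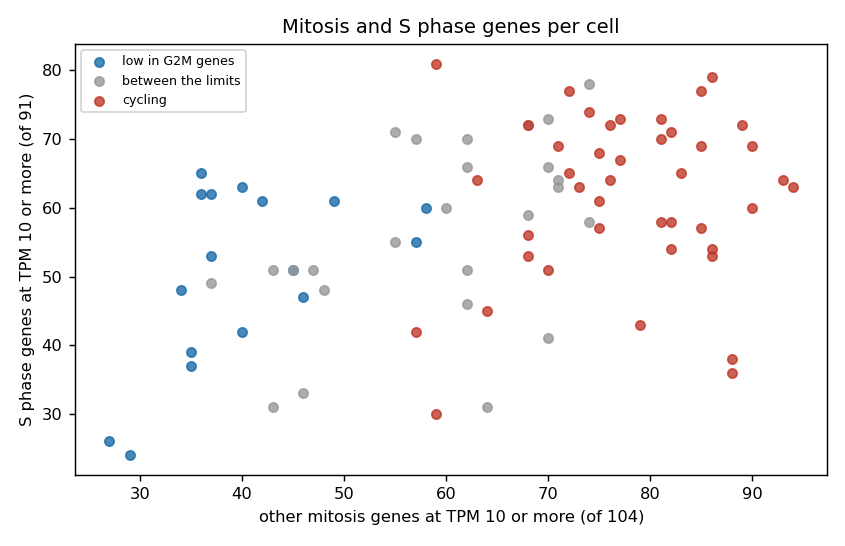
Each of the 84 cells by the number of other mitosis genes (x axis, of 104) and of S phase genes (y axis, of 91) at TPM 10 or more, coloured by class. Low cells lie at 27 to 58 mitosis genes, left of nearly all cycling cells at 57 to 94, and spread over 24 to 65 S phase genes, within much of the range of cycling cells at 30 to 81.

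Of the S phase genes, Cdc6, Dtl and Casp8ap2 were the 3 with means at least 1 log2 unit higher in low cells. Cdc6, which loads the replicative helicase at origins (chromosome 11, 98907709 to 98923942), ran from 0.0 through 46.8 to 692.2 TPM in low cells, against 0.0, 5.78 and 237.1 TPM in cycling cells. Its difference was 1.46, with 11 of 17 low cells and 25 of 42 cycling cells at TPM 1 or more. The difference was 0.92 without cells carrying other markers and 3.28 at like gene numbers. Dtl, the substrate receptor that targets the licensing factor Cdt1 for destruction, had medians of 52.2 TPM in low cells and 19.3 TPM in cycling cells and a difference of 1.27. Casp8ap2, needed for histone transcripts, had a difference of 1.13, which was 0.52 without cells carrying other markers and 1.43 at like gene numbers. The helicase subunit gene Mcm4 had a difference of 0.92. It was -0.07 without cells carrying other markers and 1.47 at like gene numbers, so its direction depends on the cells compared. Cyclin E2, Ccne2, behaved alike, at 0.69 with all cells, -0.18 without cells carrying other markers and 2.67 at like gene numbers.

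Other replication genes had lower means in low cells. Cdc45, part of the active helicase, had a difference of -3.08 with medians of 0.36 TPM in low cells and 95.1 TPM in cycling cells. Gmnn, geminin, the inhibitor of licensing that accumulates from S phase to mitosis (chromosome 13, 24751845 to 24761937), ran from 0.0 through 30.1 to 498.2 TPM in low cells, against 0.0, 206.5 and 816.3 TPM in cycling cells, a difference of -2.81. Rrm2, a subunit of ribonucleotide reductase, had a difference of -1.63, which was -3.30 without cells carrying other markers and -0.96 at like gene numbers. The helicase subunit gene Mcm5 and cyclin E1, Ccne1, which act early in replication as Cdc6 does, had differences of -1.13 and -1.18. These were -0.63 and -0.06 at like gene numbers, and -2.28 and -1.84 without cells carrying other markers. Pcna, the sliding clamp, had a difference of -0.00 with medians of 336.9 TPM in low cells and 361.7 TPM in cycling cells, but it was -0.97 without cells carrying other markers and 1.67 at like gene numbers.

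Genes of G1 and cell cycle exit, a list that holds both inhibitors and promoters of the cycle, went both ways. Of 44 compared, 2 had a mean at least 1 log2 unit higher in low cells and 6 (13.6%) one at least 1 unit lower, with a median difference of -0.12. Of all genes compared outside the cell cycle, 2.1% were higher and 14.8% lower by 1 unit. Without cells carrying other markers 6 were higher and 8 lower, and at like gene numbers 10 were higher and 3 lower, with a median of 0.12. Of all genes outside the cycle 6.41% were higher and 19.8% lower in the first setting, and 14.5% and 11.2% in the second. Nothing is read from the counts of this list. Mxd4, a partner of Max that opposes Myc and is linked to differentiation, ran from 0.0 through 113.8 to 324.0 TPM in low cells, against 0.0, 8.83 and 386.7 TPM in cycling cells. It was at TPM 1 in 13 of 17 low cells (76.5%, interval 50.1 to 93.2%) and 25 of 42 cycling cells (59.5%, interval 43.3 to 74.4%). Its difference was 2.21, and 2.70 without cells carrying other markers. Mxd4 was picked with its values in view, so these values are no support for a gap. The inhibitor genes Cdkn1b (p27), Cdkn1c (p57) and Cdkn1a (p21) had differences of 0.08, 0.71 and -0.02, and of -0.47, -0.41 and 0.32 at like gene numbers. Cdkn1c was at TPM 10 in all 17 low cells and in 40 of 42 cycling cells, and Cdkn1a at TPM 1 in 3 of 17 low cells and 9 of 42 cycling cells. Fzr1, the activator of the anaphase-promoting complex in G1, had the lowest difference of the list, -2.77, with 8 of 17 low cells and 39 of 42 cycling cells at TPM 1.

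Outside the cell cycle, 10630 genes reached TPM 1 in at least 10 of the 84 cells and were compared. Of these, 1571 had a mean at least 1 log2 unit lower in low cells (14.8%) and 223 had one at least 1 unit higher (2.1%). The median difference over the 10630 genes was -0.27, with 7243 genes lower and 3387 higher. Without cells carrying other markers the counts were 2106 lower and 681 higher. Among cells of like numbers of detected genes they were 1186 lower and 1543 higher, with a median of 0.05, so the balance of the 2 directions was not the same in that subset. The subset still held other markers unevenly, in 4 of 9 low cells and 9 of 13 cycling cells. Of the 1571 lower genes, 653 were also lower by 1 unit among cells of like gene number (41.6% of the first list and 55.1% of the second), and 1059 without cells carrying other markers (67.4% and 50.3%).

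The 15 genes with the lowest differences were named by a rule given with the processing, and several are known to work in division although no cycle list held them. C330027C09Rik, the gene RefSeq names Cip2a, an inhibitor of the phosphatase PP2A that stabilises Myc (chromosome 16, 48994157 to 49019716), was lowest at -3.80. It was at TPM 1 in 5 of 17 low cells (29.4%, interval 10.3 to 55.96%) and 37 of 42 cycling cells (88.1%, interval 74.4 to 96.0%). The 15 genes were picked by the gap between the classes, so intervals given for them are no support for that gap. Nde1, a dynein regulator needed at centrosomes and kinetochores (chromosome 16, 14163275 to 14192928), ran from 0.0 through 2.26 to 440.7 TPM in low cells, 0.0, 67.1 and 570.8 TPM between and 0.38, 152.3 and 547.0 TPM in cycling cells. Its difference was -3.57, and -4.46 among cells of like numbers of detected genes. The ranges overlap, with 6 of 17 low cells and 37 of 42 cycling cells at TPM 10.

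Further genes of the 15 also have roles tied to chromatin and division. 2810417H13Rik, which RefSeq names Pclaf, a partner of the sliding clamp, had medians of 28.9 TPM in low cells and 335.3 TPM in cycling cells and a difference of -3.48. Suv39h1, the enzyme that places the heterochromatin mark at lysine 9 of histone H3, was at TPM 10 in 2 of 17 low cells and 34 of 42 cycling cells, a difference of -3.17. Cdkn3, a phosphatase that acts on Cdk1 and Cdk2, was at TPM 1 in 2 of 17 low cells (11.8%, interval 1.46 to 36.4%) and 29 of 42 cycling cells (69.05%, interval 52.9 to 82.4%), a difference of -3.02. These 5 genes are called outside the cycle only because the lists and name patterns did not hold them.

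Other members of the 15 have no known part in mitosis as their main role. Tamm41, an enzyme of mitochondrial cardiolipin synthesis, had medians of 5.07 TPM in low cells and 122.0 TPM in cycling cells and a difference of -3.33. Gtf2h1, a subunit of the general transcription factor TFIIH, had medians of 0.26 TPM in low cells and 29.7 TPM in cycling cells, a difference of -3.06. Nelfe, of the complex that pauses RNA polymerase II, was at TPM 10 in 3 of 17 low cells and 29 of 42 cycling cells, a difference of -3.02, and -1.61 without cells carrying other markers.

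A further 6 of the 15 were 0610009B22Rik, Mina, Vkorc1, Rap2c, Rpain and Rnf26, with differences between -3.42 and -2.90. Vkorc1, the vitamin K epoxide reductase, had smaller differences in both restricted comparisons, at -1.60 without cells carrying other markers and -1.33 at like gene numbers. Rpain stood at -0.82 and Rap2c at -1.55 at like gene numbers, and Rnf26 at -1.11 without cells carrying other markers. The cells between the limits had an intermediate mean for 14 of the 15 genes, and over the 1571 lower genes for 1158 (73.7%). Picking genes by the gap between the outer classes favours an intermediate mean. No share over all genes stands beside it, so nothing is read from it. Within sets of cells that share a second index, 12 of the 15 were lower in low cells in 6 of 6 sets. Vkorc1 was lower in 5 and Rpain and Rnf26 in 4. The sets split the same cells from which the 15 genes were picked, so this is no separate support. No like share over all genes is given.

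**Figure D3:**
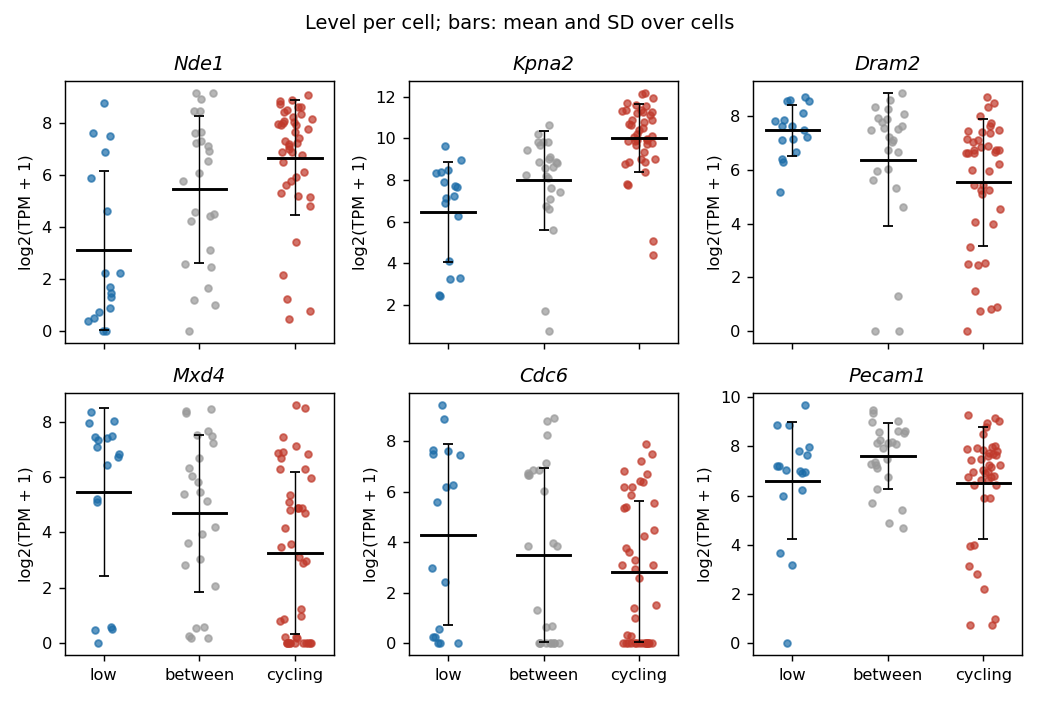
TPM per cell on the log2(TPM + 1) scale for Nde1, Kpna2, Dram2, Mxd4, Cdc6 and Pecam1, in low cells, cells between the limits and cycling cells, with the mean and SD over cells of each class. Nde1 and Kpna2 are lower and Dram2, Mxd4 and Cdc6 higher in mean in low cells, the ranges of all 6 genes overlap, and Pecam1 differs by 0.10 in mean.

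Genes with higher means in low cells were fewer and their differences smaller. The 15 highest ran from 1.59 to 2.25, and many were detected in only a part of the low cells. Dram2, a lysosomal membrane protein linked to autophagy (chromosome 3, 106547798 to 106575341), was the most evenly present: it ran from 34.95 through 198.2 to 422.5 TPM in low cells, 0.0, 147.8 and 467.7 TPM between and 0.0, 98.3 and 418.1 TPM in cycling cells. All 17 low cells held it at TPM 10, against 33 of 42 cycling cells. The difference was 1.94, and 1.70 without cells carrying other markers. Low cells had the higher mean in 6 of 6 index sets, which split the same cells that it was picked from. Cdk16, a kinase of the cyclin-dependent family, had medians of 35.9 TPM in low cells and 9.98 TPM in cycling cells, a difference of 1.8, and 2.16 without cells carrying other markers.

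Sepp1, selenoprotein P, which carries selenium between tissues, had medians of 219.9 TPM in low cells, 337.6 TPM between and 71.7 TPM in cycling cells, so the cells between the limits were highest, and its difference of 1.81 was 1.17 without cells carrying other markers. 2810403A07Rik, which RefSeq names Khdc4, had medians of 111.5 TPM in low cells and 35.4 TPM in cycling cells and a difference of 1.72. Ppme1, a phosphatase methylesterase, had medians of 60.02 TPM in low cells and 11.6 TPM in cycling cells and a difference of 1.90. Tns1, tensin of focal adhesions, had medians of 17.4 TPM in low cells and 0.70 TPM in cycling cells and a difference of 1.8. Smpd5, a sphingomyelinase, was highest of all at 2.25, yet only 9 of 17 low cells and 8 of 42 cycling cells held it at TPM 1. At like gene numbers Sepp1 stood at 2.78, Tns1 at 3.77 and Smpd5 at 3.74.

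The other 8 of the 15 were Rnf34, Gstm7, Slc35f6, Nxn, Arv1, Ninj1, Tmem9b and Blcap. Several depended on the cells compared. Without cells carrying other markers Slc35f6 stood at 0.31, Arv1 at 0.20, Ninj1 at 0.54, Blcap at 0.74, Tmem9b at 0.81 and Nxn at 0.96. Among cells of like gene number Slc35f6 stood at 2.79, Arv1 at 2.835, Gstm7 at 2.78, Ninj1 at 3.32 and Nxn at 3.37, above their values with all cells. Blcap at 1.29, Tmem9b at 1.39 and Rnf34 at 0.39 stood below theirs in that setting. The cells between the limits had an intermediate mean for 8 of the 15 and for 128 of the 223 higher genes (57.4%), beside the 73.7% of lower genes. These genes too were picked by the gap between the outer classes, and no share over all genes is given.

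Of the gene lists outside the cell cycle, that of nuclear transport and the nuclear pore had the lowest median. It is outside only in that it is none of the cycle lists, and its member Kpna2 counted as a cell cycle gene. Whether its other members vary with the cycle was not tested. Of 24 members compared, 12 had a mean at least 1 log2 unit lower in low cells and 0 one that much higher, with a median difference of -1.06, beside 14.8% lower and -0.27 over all genes outside the cycle. Kpna2, an importin that carries proteins into the nucleus (chromosome 11, 106988629 to 106999525), ran from 4.39 through 148.1 to 798.4 TPM in low cells, 0.70, 400.4 and 1591 TPM between and 20.5, 1145 and 4647 TPM in cycling cells. The difference was -3.55, and -3.24 among cells of like gene number. The pore genes Nup37, Nup54 and Nup107 had differences of -2.81, -2.21 and -1.49. Nup107 stood at -0.16 without cells carrying other markers, and Nup37 at -1.42 at like gene numbers. Not every member shared in this: the export receptor Xpo1 had a difference of -0.14 and the pore basket gene Tpr one of 0.00. The list's median was -1.01 without cells carrying other markers (12 of 24 lower) and -0.60 among cells of like gene number (9 of 24 lower).

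A further 3 lists had medians at least 0.3 under that of all genes outside the cycle. Of 20 nucleotide synthesis genes, 7 were lower by 1 unit and 0 higher, with a median of -0.76, Prps1 (phosphoribosyl pyrophosphate synthetase) being lowest at -2.12, and at -0.78 at like gene numbers. Cad, of pyrimidine synthesis, stood at -1.43, but at -0.01 without cells carrying other markers. Of 9 genes of the response to flow, 4 were lower by 1 unit and 0 higher, with a median of -0.88, and of 14 immediate early genes, 5 were lower and 0 higher, with a median of -0.70. Among cells of like numbers of detected genes all 3 medians were above 0, at 0.13, 0.42 and 0.11, while that of nuclear transport was below 0.

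Fos, an immediate early transcription factor that responds to stimuli and to cell isolation, ran from 0.0 through 4.34 to 410.5 TPM in low cells, against 0.0, 88.2 and 1045 TPM in cycling cells, a difference of -1.97. It was -2.62 without cells carrying other markers and -0.41 among cells of like gene number. Klf2, a factor induced by shear stress, was at TPM 10 in 3 of 17 low cells and 17 of 42 cycling cells, a difference of -1.14, and -0.22 at like gene number. Klf4, a related factor, had a difference of -1.29, which was 0.19 without cells carrying other markers and 0.53 at like gene number. Leaving out 1 low cell at a time moved the number of lower flow genes between 2 (without cell 41, 56 or 78) and 5, and that of immediate early genes between 4 and 6.

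Growth and housekeeping lists lay nearer to all genes. Of 26 ribosome biogenesis genes, 5 were lower by 1 unit and 0 higher, with a median of -0.49, among them Wdr12 (-2.23) and Nop2 (-2.10). Of 24 proteasome genes 2 were lower, with a median of -0.50, of 23 translation factors 1, with a median of -0.21, of 33 respiratory chain genes 1, with a median of -0.14, and of 19 glycolysis genes 1, with a median of -0.20. Of 32 genes of chromatin and DNA methylation 7 were lower (21.9%), with a median of -0.32 and Suv39h1 lowest. Splicing, heat shock, cholesterol synthesis, matrix, and interferon and MHC lists had medians between -0.32 and -0.19. The lysosome and autophagy list had 4 of 22 members lower by 1 unit and 0 higher, with a median of 0.07.

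**Figure D4:**
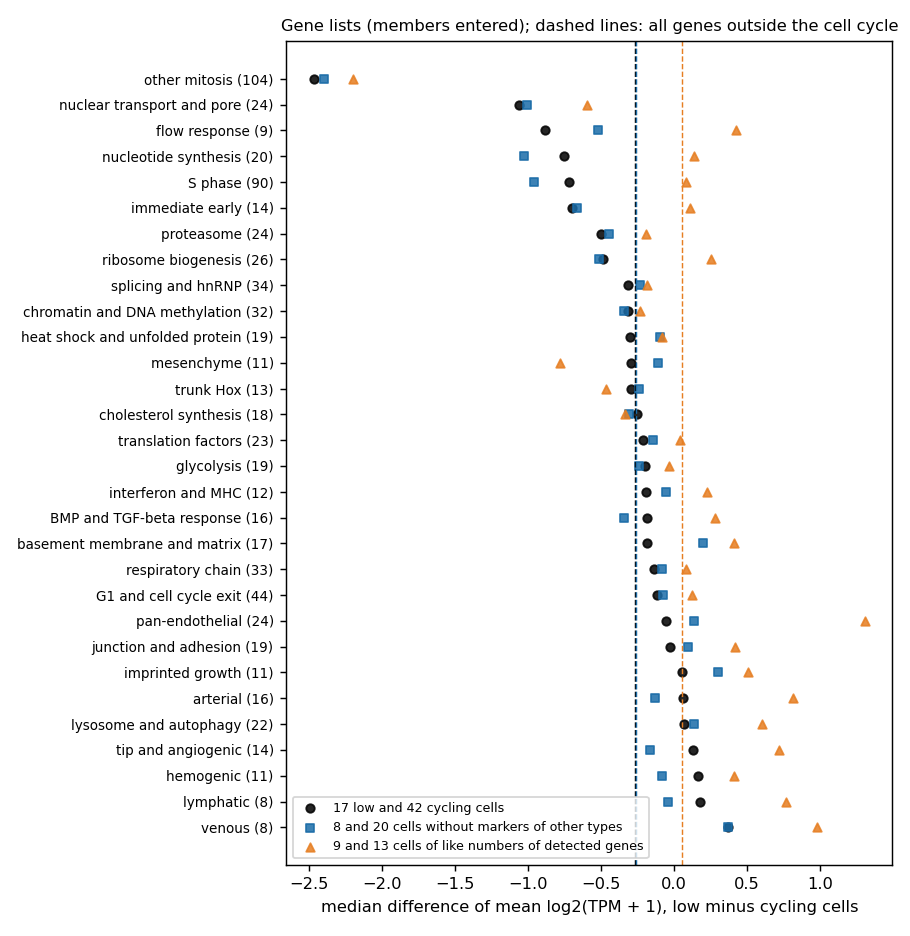
Median difference of mean log2(TPM + 1), low minus cycling cells (x axis), for gene lists (rows), with all cells, without cells carrying markers of another type and among cells of like numbers of detected genes. The lists of other mitosis genes (-2.47) and nuclear transport (-1.06) lie left of the median of all genes outside the cycle at -0.27. Pan-endothelial, arterial, lymphatic and venous lists lie at -0.06 to 0.37 with all cells. They lie at -0.13 to 0.37 without cells carrying other markers and at 0.77 to 1.31 at like gene numbers (members compared in brackets, dashed lines for all genes outside the cycle).

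For endothelial identity genes the difference between the classes depended on the cells compared. Pecam1, which encodes CD31 (chromosome 11, 106654213 to 106715281), ran from 0.0 through 129.8 to 819.8 TPM in low cells, 24.7, 273.7 and 715.0 TPM between and 0.64, 137.4 and 624.7 TPM in cycling cells, a difference of 0.10, and 1.45 at like gene numbers. Cdh5, vascular cadherin, had a difference of -0.02, and 1.14 at like gene numbers, with medians of 139.2 TPM in low cells and 119.1 TPM in cycling cells. The 24 pan-endothelial genes had a median difference of -0.06, with 3 lower by 1 unit and 1 higher. Those lower were the adhesion genes Icam2 (-2.17), Esam (-1.45) and Robo4 (-1.40), and the one higher was the transcription factor Ets1 (1.14, and 0.98 without cell 7). Without cells 12, 41, 72 and 78 the 3 lower genes stood at -0.97, -0.59 and -0.69. The list then had 5 members higher and 0 lower, with a median of 0.67. Cell 78 was set apart for its few pan-endothelial genes, and only low cells were left out (13 low against 42 cycling cells). The cycling cell with 0 of the 24 genes at TPM 10 stayed in. A rise of this list thus follows in part from that choice of cells. In the comparison at like gene numbers Icam2 stood at -0.15, Esam at 1.08 and Robo4 at -0.28. There 16 of the 24 were higher and 0 lower, with a median of 1.31, beside 14.5% higher and 11.2% lower outside the cycle. The low cells of that comparison held a median of 20 of the 24 genes at TPM 10 and the cycling cells 17. Without cells carrying other markers the median of the list was 0.14, with 1 member higher and 2 lower.

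Of 16 arterial genes compared, 0 were past 1 unit in either direction, with a median difference of 0.06. The artery-restricted connexin Gja4 was at TPM 1 in 4 of 17 low cells and 11 of 42 cycling cells, with a difference of 0.15, and the Notch ligand Dll4 in 4 of 17 low cells and 13 of 42 cycling cells, with one of 0.04. Sox17 was at TPM 1 in 4 of 17 low cells (23.5%, interval 6.81 to 49.9%) and 23 of 42 cycling cells (54.8%, interval 38.7 to 70.2%), with a difference of -0.69. The receptor gene Notch1 had a difference of 0.02 and medians of 9.59 TPM in low cells and 12.5 TPM in cycling cells. Without cells carrying other markers the arterial median was -0.13, with 2 genes past 1 unit each way, and Gja4 stood at -1.15, with 1 of 8 low cells and 5 of 20 cycling cells at TPM 1. At like gene numbers Gja4 stood at 2.64 and the median at 0.81, so neither direction held across the settings.

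Venous genes had a median difference of 0.37 over 8 genes, with 0 past 1 unit. Nr2f2, the factor of venous identity, had medians of 190.2 TPM in low cells, 160.0 TPM between and 135.2 TPM in cycling cells, a difference of 0.74, which was 0.17 without cells carrying other markers. The co-receptor gene Nrp2 had a difference of 0.87, and 1.06 without those cells. The 8 lymphatic genes had a median of 0.18, with Prox1 at 0.31, and the 14 tip and angiogenic genes one of 0.13. Pdgfb, the growth factor with which endothelium recruits mural cells, was the only tip gene past 1 unit, at -1.61, with 4 of 17 low cells and 20 of 42 cycling cells at TPM 1, and it stood at -0.62 at like gene numbers.

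Of 11 hemogenic genes compared, 1 was higher and 1 lower by 1 unit, with a median of 0.16. Runx1, required for blood formation from endothelium, was at TPM 1 in 2 of 17 low cells and 6 of 42 cycling cells, a difference of 0.16, and in 0 of 8 low cells and 0 of 20 cycling cells without other markers. Mecom had a difference of -1.39, and -0.44 without cells carrying other markers, and Meis1 one of 1.17. That of Meis1 was -0.05 without cells 12, 41, 72 and 78 and -1.20 without all cells carrying other markers, so its direction rests on those cells. In the BMP and TGF-beta list, 1 of 16 genes was higher by 1 unit, Id1 at 1.02. Its difference was 0.80 without cell 75, -0.40 without cells carrying other markers and 3.41 at like gene numbers.

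Among the remaining lists, the junction and adhesion list had 2 of 19 genes higher and 1 lower by 1 unit, with a median of -0.03. F11r, a tight junction adhesion gene, was highest at 1.86, but stood at -0.10 without cells carrying other markers and at 2.995 at like gene numbers. The focal adhesion gene Pxn, paxillin, had medians of 105.7 TPM in low cells and 46.3 TPM in cycling cells, a difference of 1.54, and 1.0 without cells carrying other markers. Imprinted growth genes had a median of 0.05 over 11 genes, with Igf2 at 0.81 and the growth suppressor Ndn at 1.21, and 0.93 without cell 12. Trunk Hox genes had a median of -0.29 over 13 genes, with 1 higher and 1 lower by 1 unit, Hoxa9 standing at -1.19, and at -0.92 without cells carrying other markers. The mesenchyme markers, 11 of which were compared, had a median of -0.30.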

How the data were processed

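Single-cell RNA of 84 sorted cells was measured, and each deposited sample is 1 cell. The authors deposited a table of TPM for 20308 genes in each cell, with totals of 999998 to 1000002 per cell. The submitters' processing notes name Bowtie 0.12.9, RSEM 1.2.3, CASAVA 1.8.2 and build mm10. Neither their settings nor the annotation used is given in the sources used here. Libraries were read single-end at 67 bp, 24 to a lane, per the labels' protocols. TPM keeps no depth, so the reads behind a cell are unknown, and a 0 can be a missed transcript. Reads shared by near-identical genes make their values uncertain.

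A rule gene counted at TPM 10 or more, and a gene was detected at TPM 1 or more. Genes detected in at least 10 cells (11135) entered as log2(TPM + 1), on which differences of low genes come out too small. Differences are low minus cycling means, and 1 log2 unit is the size used for counts, in place of a test. Cell cycle genes were those of the cycle lists and those that matched fixed name patterns. No cell was left out, no doublet caller was run and 0 pairs of cells were identical. A cell carried other markers at 3 or more genes of 1 other type at TPM 10. The named genes are the rule genes, the sort genes, the 15 highest and 15 lowest genes outside the cycle that were detected in at least 21 cells and whose sign held with a pseudocount of 10, with median-of-ratios scaling and without cells carrying other markers, and of each list the 3 members of highest level and the member with the largest difference. Any further gene in the text was picked with its values in view. Values of 1 gene that the rule takes and of 1 gene list are not reported here. The classes, members and lists were chosen with earlier results of these data known. Of the gene symbols, 18956 (93.3%) matched a RefSeq symbol of GRCm38.p6, and 20220 (99.6%) with synonyms; coordinates and promoter sequences are RefSeq's for GRCm38.p6. Motifs were counted on both strands of the 250 bases before the start. Intervals are exact Clopper-Pearson at the 95% level. The computation of differences was tested on simulated data. Python 3.11.15, numpy 2.4.6, pandas 2.3.3 and scipy 1.17.1 were used. Alternatives covered the pseudocount, filter, scaling, class limits, TPM limit, cells with other markers, like gene numbers, index sets, single cells and the promoter window.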

Additional observations from a re-analysis of the deposited data

How the results depend on the processing

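The count of genes outside the cell cycle lower or higher by 1 log2 unit in low cells depends on the scale and the cells: it was 246 lower and 30 higher with a pseudocount of 10, and 3230 lower and 457 higher with one of 0.1, since the pseudocount sets the size of differences of low genes. The number of higher genes was 136 among genes at TPM 1 in 42 cells, 379 with limits of 5 and 14, 681 without cells carrying other markers, 1543 among cells of like numbers of detected genes and 445 without cells 12, 41, 72 and 78 (this setting and the leaving out of single cells were chosen after seeing the data); the cause was not tested. Higher genes made up 12.4% of all genes past 1 unit with all cells, 24.4% without cells carrying other markers and 56.5% at like gene numbers. Leaving out 1 low cell at a time gave 217 to 285 higher and 1449 to 1774 lower genes and 4 to 5 lists with medians at least 0.3 under that of all genes.

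Among named genes with a difference of 1 or more in size, 18 of 1391 values under other settings changed sign. Many could not: settings that changed only the filter on low genes left each difference as it was. The highest and lowest genes outside the cycle were picked to keep their sign with the larger pseudocount and with median-of-ratios scaling. They also had to keep it without cells carrying other markers, and the rule genes chose the classes. The share is thus no measure of how firm the signs are. Without cells carrying other markers the values that changed sign were Klf4 (0.19), Id1 (-0.40), Sdhd (1.13), F11r (-0.10) and Meis1 (-1.20). At like gene numbers they were Klf4 (0.53), Mecom (0.48), Sdhd (0.67), Eif4b (0.031), Psmd11 (0.0094), Hoxd8 (-0.47), Shmt2 (0.31), Esam (1.08), Meis1 (-0.84), Zfp36 (0.10), Fosb (0.23) and E2f4 (0.66). Without cells 12, 41, 72 and 78 it was Meis1 (-0.053). Of 107 named genes with a difference of 1 or more, 15 came under 1 without some single low cell, none of them above 1.32 in size with all cells. In the shorter promoter window of 100 bases, CCAAT was in 84.6% and TTTGAA in 38.5% of the rule genes. Among the 132 named genes with a smaller difference, 206 of 1716 values changed sign, in 79 genes. The filter settings could not change a sign there either. No paired analysis was possible because no test was run and the replicate numbers only name cells; the mean of the differences within the 6 index sets that hold both classes gave 333 higher and 1732 lower genes. With 17 low cells and 1 sample, the values limit what can be said of other embryos.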
